A study of Mus musculus with 10 samples.

Results

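The immediate early and stress response genes described here are 10 factors, measured in sorted luminal cells of the mouse prostate: Fos, Fosb, Jun, Junb, Jund, Egr1, Nr4a1, Klf6, Ier3 and Atf3. A gene was taken from the rows annotated with that gene symbol and no other. This gave 9 members, each on 1 row, among 30142 genes measured in the same way. The row that carries Junb also carries Prdx2, so Junb is not analysed here. Values are log2 RMA intensities from Affymetrix ClariomD (MTA-1.0) arrays, with 1 array per sample, so a difference of 1 is a doubling.

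All mice were male and carried the Hoxb13-rtTA and TetO-H2BGFP transgenes, in which the prostate homeobox gene Hoxb13 drives a doxycycline-dependent transactivator and, through it, a histone-bound green fluorescent protein. All drank doxycycline at 2 mg/ml for 1 week. The regenerated group (n = 4) was castrated surgically at 12 weeks of age, regressed for 6 weeks and received testosterone from a subcutaneous implant for 4 weeks. The castrated group (n = 3) had the same operation and 6 weeks of regression. The intact group (n = 3) was untreated, and the sources used here do not give its age. Cells were sorted as positive for the fluorescent protein and CD24 and intermediate for CD49f, and cells with CD45, CD11b or the macrophage antigen encoded by Adgre1 were left out. The arrays of a group are biological replicates by their labels, while the number of animals behind an array and the method of dissociation are not given in the sources used here.

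Immediate early genes are transcribed within minutes of a growth factor, cytokine or stress signal, without new protein synthesis, by factors already bound at their promoters such as the serum response factor and CREB. Fos and Jun proteins pair as the AP-1 factor, and Atf3, Egr1, Klf6 and Nr4a1 are DNA-binding regulators induced by overlapping signals. Dissociating a tissue into single cells can induce the same genes.

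In the castrated group 2 of the 9 members, Klf6 and Ier3, rose over intact, where limma called 4.82% of all genes as higher. They rose by 1.38 ± 0.30 and 1.01 ± 0.14 log2 (SE from limma). In the regenerated group 3 members, Nr4a1, Klf6 and Ier3, fell below castrated, where 3.01% of all genes were called as lower. They fell by 2.60 ± 0.45, 2.33 ± 0.28 and 1.03 ± 0.13 log2. No member passed the test between regenerated and intact arrays, where 0.0365% of all genes did. Calls are genes with a limma adjusted p under 0.05 (Benjamini-Hochberg over all 30142 genes). All 10 Ier3 values lay under the highest background control of their own array, so the size of its changes is uncertain.

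Some arrays stood apart before any comparison. Regenerated replicate 3 had the lowest value of all 10 arrays for 8 of the 9 members, with Ier3 the exception, and the members averaged -1.13 log2 from their own 10-array means in it, against -0.44 to -0.18 in the other regenerated arrays. Within the intact group, replicate 1 was the highest for 9 of 9 members and replicate 3 the lowest for 8 of 9. Over all genes it was regenerated replicate 4 that lay apart, at 3.03 on the first principal component (44.3% of the variance), against -31.0 to -23.2 for the other regenerated arrays, 64.1 to 75.5 for castrated arrays and -47.6 to -40.5 for intact arrays.

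**Figure D1:**
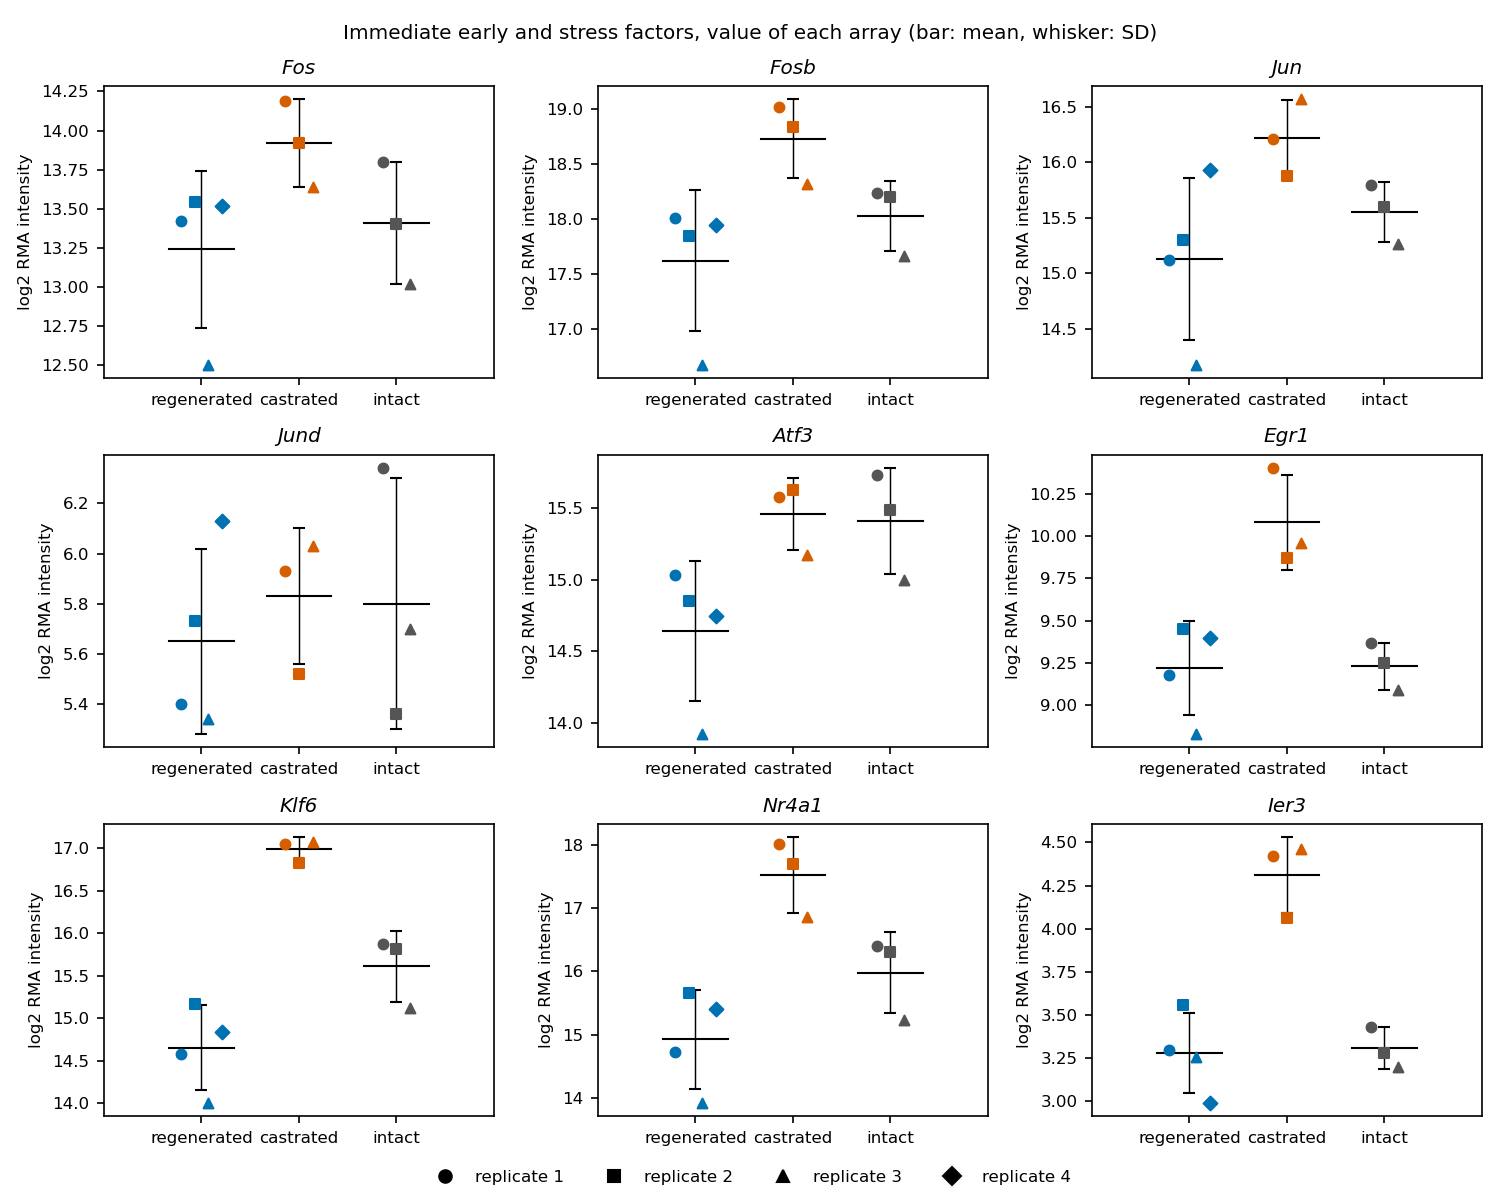
Log2 RMA intensity of each member in each array, with regenerated (blue), castrated (orange) and intact (grey) groups from left to right and a marker shape per replicate number. Bars are group means and whiskers SDs; the castrated arrays lie above all others for Klf6, Nr4a1, Egr1, Fosb and Ier3, and the regenerated replicate 3 triangle is the lowest point in every panel but Ier3.

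Fos (transcript cluster TC1200000833.mm.1), the founding AP-1 subunit, measured 13.42, 13.54, 12.50 and 13.52 in regenerated arrays, 14.19, 13.92 and 13.64 in castrated arrays and 13.80, 13.40 and 13.02 in intact arrays. Castrated and intact values overlapped, and the castrated difference of 0.51 ± 0.32 log2 did not pass (limma adjusted p = 0.438). Regenerated values all lay below castrated ones, with a difference of -0.67 ± 0.30 that did not pass either (adjusted p = 0.263).

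Fosb (transcript cluster TC0700002477.mm.1), a Fos paralogue that also needs a Jun partner to bind DNA, measured 18.01, 17.85, 16.67 and 17.95 in regenerated arrays, 19.02, 18.84 and 18.32 in castrated arrays and 18.24, 18.20 and 17.66 in intact arrays. The castrated arrays were above both other groups without overlap. Neither difference passed: it was 0.69 ± 0.34 log2 for castrated against intact (limma adjusted p = 0.289) and -1.11 ± 0.32 for regenerated against castrated (adjusted p = 0.0805). The second passed with array weights (limma adjusted p = 0.0357) and over genes above background only (0.0407). Both passed with a replicate block (0.0427 and 0.00826). The highest value anywhere in the table was 19.93, so Fosb lay near the top of the scale and its differences may be compressed.

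Jun (transcript cluster TC0400003079.mm.1), the main DNA-binding partner of Fos, measured 15.12, 15.30, 14.17 and 15.93 in regenerated arrays, 16.21, 15.88 and 16.57 in castrated arrays and 15.80, 15.60 and 15.26 in intact arrays. Castrated and intact values did not overlap, whereas regenerated replicate 4 reached into the castrated range. The differences were 0.67 ± 0.38 log2 for castrated against intact (limma adjusted p = 0.372) and -1.09 ± 0.35 for regenerated against castrated (adjusted p = 0.118). The second passed without regenerated replicate 4 (-1.36 log2, adjusted p = 0.0259) and with array weights (-1.23 log2, 0.0468).

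Jund (transcript cluster TC0800000760.mm.1), the Jun family member that many resting cells keep expressing, ran from 5.34 to 6.13 in regenerated arrays, from 5.52 to 6.03 in castrated arrays and from 5.36 to 6.34 in intact arrays. The groups overlapped throughout, and the castrated difference from intact was 0.02 ± 0.28 log2 (limma adjusted p = 0.979). All 10 values were under 6.40, the highest value of any background control row, and 2 of the 10 were at or under the highest background row of their own array.

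Atf3 (transcript cluster TC0100003804.mm.1), a stress-induced factor of the ATF/CREB family, measured 15.03, 14.85, 13.92 and 14.75 in regenerated arrays, 15.58, 15.63 and 15.17 in castrated arrays and 15.73, 15.49 and 15.00 in intact arrays. Unlike the order seen for Fosb and Jun, the castrated and intact values interleaved, with a difference of 0.05 ± 0.30 log2 (limma adjusted p = 0.955). The regenerated arrays lay below the castrated ones without overlap, by 0.82 ± 0.28 log2 (adjusted p = 0.142), and 1 of them reached above the lowest intact array (regenerated against intact -0.77 ± 0.28, adjusted p = 0.388).

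Egr1 (transcript cluster TC1800000301.mm.1), a zinc finger factor induced through the serum response factor, measured 9.18, 9.45, 8.83 and 9.40 in regenerated arrays, 10.40, 9.87 and 9.96 in castrated arrays and 9.37, 9.25 and 9.09 in intact arrays. The castrated arrays were above both other groups without overlap. Both differences missed the threshold narrowly, at 0.85 ± 0.24 log2 against intact (limma adjusted p = 0.0602) and -0.87 ± 0.23 for regenerated against castrated (adjusted p = 0.0566). Without regenerated replicate 4 both passed (adjusted p = 0.0434 and 0.0402), as they did in limma without the trend (0.0267 and 0.0253), with array weights (0.0284 and 0.0319) and over genes above background only (0.0304 and 0.0283).

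Klf6 (transcript cluster TC1300000028.mm.1), a Krüppel-like zinc finger factor studied as a growth suppressor in prostate, measured 14.58, 15.17, 14.00 and 14.84 in regenerated arrays, 17.05, 16.83 and 17.08 in castrated arrays and 15.87, 15.82 and 15.12 in intact arrays. The castrated arrays formed a tight group (16.99 ± 0.14, SD, n = 3) above all others, and regenerated replicate 2 alone overlapped the intact range. Klf6 rose in castrated cells by 1.38 ± 0.30 log2, or 2.60-fold (limma adjusted p = 0.0187), a call that ended without intact replicate 3 (adjusted p = 0.0609), castrated replicate 1 (0.0563) or castrated replicate 3 (0.06). It fell by 2.33 ± 0.28 log2 in regenerated against castrated cells, to a level 5.04-fold lower (adjusted p = 0.00118), and this call was kept in all 18 alternatives. The regenerated mean was 0.95 ± 0.28 log2 below intact, which did not pass (adjusted p = 0.282).

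Nr4a1 (transcript cluster TC1500001067.mm.1), an orphan nuclear receptor also called Nur77, measured 14.73, 15.66, 13.92 and 15.41 in regenerated arrays, 18.02, 17.70 and 16.86 in castrated arrays and 16.40, 16.30 and 15.24 in intact arrays. Castrated arrays were again above both other groups without overlap, and the spread over all 10 arrays, 4.10 log2, was the widest of the 9 members. Nr4a1 fell by 2.60 ± 0.45 log2 in regenerated against castrated cells, to a level 6.05-fold lower (limma adjusted p = 0.00853), in all 18 alternatives. Its castrated difference from intact, 1.54 ± 0.48 log2, did not pass (limma adjusted p = 0.0823). It passed without regenerated replicate 3, the array with the low member values (adjusted p = 0.0496). With all arrays kept it passed with array weights (0.0386), over genes above background only (0.0412) and with a replicate block (0.00988).

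Ier3 (transcript cluster TC1700000703.mm.1), a short-lived stress-inducible protein with no DNA-binding domain that affects cell survival, measured 3.30, 3.56, 3.26 and 2.99 in regenerated arrays, 4.42, 4.06 and 4.46 in castrated arrays and 3.43, 3.28 and 3.20 in intact arrays. The castrated arrays did not overlap the others. Ier3 rose by 1.01 ± 0.14 log2 over intact (limma adjusted p = 0.00229) and fell by 1.03 ± 0.13 in regenerated against castrated cells (adjusted p = 0.00186), each call kept in all 17 alternatives in which it was tested. Every value lay under the highest background control value of its own array, which ran from 4.66 to 6.40. The median of the background rows was 3.03, so Ier3 may be at background in intact and regenerated arrays, and the size of its change depends on that floor.

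The promoters of the 3 members called between regenerated and castrated cells are shown with that of Fos, which was not called, because these genes are known to answer to factors that bind close to their starts. Each is the 250 bases before the RefSeq gene start (build GRCm38.p6, plus strand): chr15:101266596-101266845 for Nr4a1, chr13:5861239-5861488 for Klf6, chr17:35821463-35821712 for Ier3 and chr12:85473640-85473889 for Fos. Capitals mark the CREB half-site TGACG on either strand (CGTCA when on the other), the variant TGACATCA, and the TATA sequence TATAA.
Nr4a1: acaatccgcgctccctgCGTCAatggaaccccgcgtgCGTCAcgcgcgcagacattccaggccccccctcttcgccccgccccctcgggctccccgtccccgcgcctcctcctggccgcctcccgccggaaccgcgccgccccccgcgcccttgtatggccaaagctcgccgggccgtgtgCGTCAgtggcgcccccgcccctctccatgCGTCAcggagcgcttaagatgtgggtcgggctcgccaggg
Klf6: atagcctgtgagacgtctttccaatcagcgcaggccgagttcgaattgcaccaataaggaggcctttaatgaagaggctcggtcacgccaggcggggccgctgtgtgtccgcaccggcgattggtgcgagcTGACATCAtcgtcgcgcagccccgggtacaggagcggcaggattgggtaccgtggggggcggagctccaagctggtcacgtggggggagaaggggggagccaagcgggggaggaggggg
Ier3: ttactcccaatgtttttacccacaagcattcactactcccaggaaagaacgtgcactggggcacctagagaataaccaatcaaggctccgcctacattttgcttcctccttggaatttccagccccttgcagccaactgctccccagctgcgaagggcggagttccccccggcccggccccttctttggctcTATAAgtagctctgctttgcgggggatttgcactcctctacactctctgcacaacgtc
Fos: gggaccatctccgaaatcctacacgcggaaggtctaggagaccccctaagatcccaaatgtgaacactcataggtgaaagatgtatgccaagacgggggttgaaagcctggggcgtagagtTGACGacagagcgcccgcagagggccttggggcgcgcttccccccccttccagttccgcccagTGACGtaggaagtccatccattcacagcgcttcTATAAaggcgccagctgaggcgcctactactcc

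Nr4a1 held 4 copies of the half-site and Fos held 2, whereas Klf6 held the variant alone and Ier3 only a TATA sequence. RefSeq promoters matched 8 of the 9 members, without Egr1. On either strand, TGACG stood in 4 of the 8 (Fos, Fosb, Nr4a1 and Atf3) and in 17.8% of all 32851 promoters of this length. TGACATCA, searched after the sequences had been seen, stood in Jun and Klf6 and in 2.93% of all promoters, and TATAA in Fos and Ier3 and in 22.8%. The full CREB site TGACGTCA, which contains TGACG (1.55% of all), the AP-1 site TGANTCA (6.75%), the CArG box of the serum response factor (1.47%) and the androgen response element, AGAACA and TGTTCT set 3 bases apart (0.00913%), were in none of the 8 windows. These are letter matches within these windows and not measured binding. Sites further from the starts, or with a mismatch to the letters searched, were not looked for, the CArG box included.

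Taken as a set, 2 of the 9 members rose in castrated against intact cells and none fell, where limma called 8.01% of all genes in this comparison and 4.82% as higher. The members' median difference was 0.69 log2, against 0.04 over all genes, and 6 of 9 had castrated arrays wholly above intact ones, as did 17.4% of all genes. Without intact replicate 3, castrated replicate 1 or castrated replicate 3 the count of called members was 1, since Klf6 was lost.

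Between regenerated and castrated cells 3 of the 9 members fell and none rose, where 4.98% of all genes were called and 3.01% as lower. The median difference was -1.03 log2, against -0.01 over all genes, and in 7 of 9 all regenerated arrays lay below all castrated ones, as in 9.51% of all genes. The count was 5 without regenerated replicate 4, with Jun and Egr1 added. Both comparisons use the same 3 castrated arrays, so they are not independent of each other, and no group was castrated for as long without testosterone, so that testosterone cannot be told apart from time since castration.

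Between regenerated and intact cells limma called none of the 9 members and 0.0365% of all genes. At an unadjusted p under 0.05 there were 3 members, Nr4a1, Klf6 and Atf3, and 10% of all genes (3019). All 9 differences were negative, from -1.05 ± 0.45 for Nr4a1 to -0.02 ± 0.23 log2 for Egr1 (SE), with a median of -0.41, and Ier3 (-0.03), Egr1, Jund (-0.15) and Fos (-0.16) turned positive in at least 1 alternative. The regenerated and intact arrays overlapped in all 9 members, whereas regenerated arrays lay wholly below intact ones in 3.23% and wholly above in 6.42% of all genes.

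**Figure D2:**
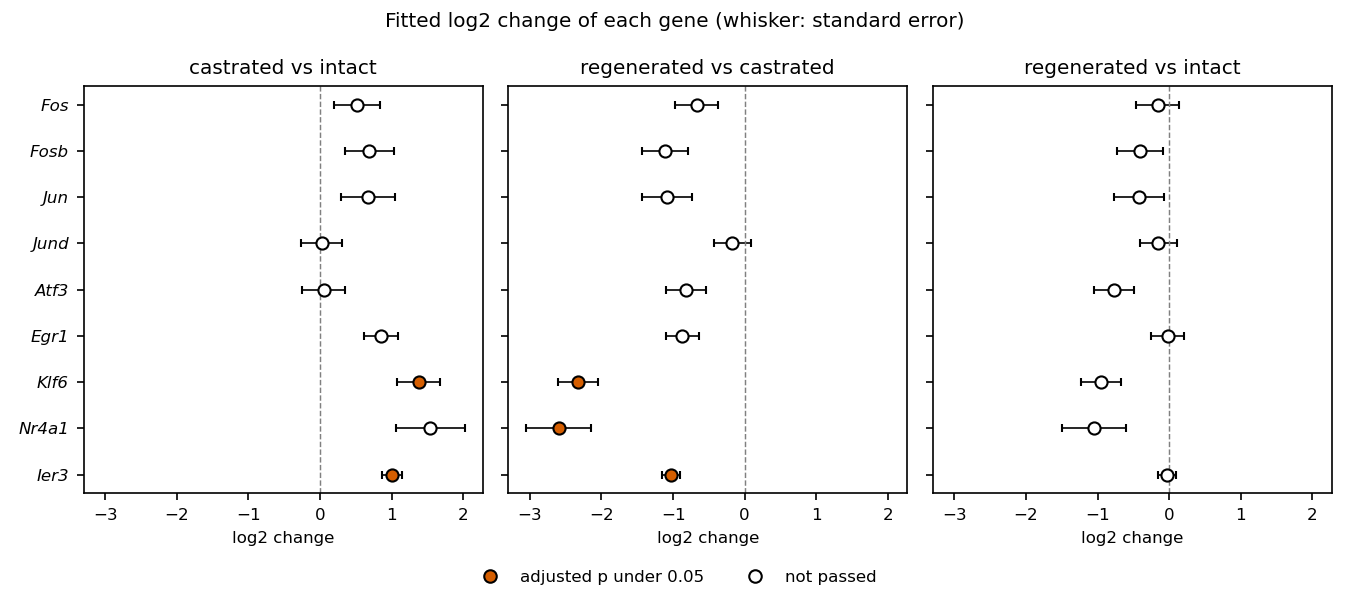
Fitted log2 change of each member (points) with its standard error (whiskers) for the 3 comparisons named above the panels; positive means higher in the group named first. Filled points passed a limma adjusted p under 0.05: Klf6 and Ier3 in the first panel, Klf6, Nr4a1 and Ier3 in the second and none in the third.

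Other genes of the same response were read from 7 lists, of which 120 of 136 genes were measured under a single symbol. For comparison, the median over all genes was 0.04 log2 in castrated against intact cells and -0.01 in regenerated against castrated cells. In the first comparison limma called 8.01% of all genes, 4.82% as higher, and in the second 4.98%, 3.01% as lower. The list counts in the paragraphs below are to be read beside these shares. The share of all genes at an unadjusted p under 0.05 is not given here for these 2 comparisons. Of 15 other AP-1 and CRE-binding subunits, 4 rose in castrated against intact cells and none fell (median 0.37 log2). Fosl1, a Fos-related subunit of AP-1, measured 4.13, 4.98, 4.39 and 4.85 in regenerated arrays, 7.54, 7.33 and 6.19 in castrated arrays and 4.51, 4.57 and 4.42 in intact arrays. It rose in castrated cells by 2.52 ± 0.33 log2 (limma adjusted p = 0.00143) and fell by 2.43 ± 0.31 in regenerated against castrated cells (adjusted p = 0.00154), while castrated replicate 3 and all regenerated and intact values lay under the background limit of 6.40. That limit is the highest background control value of any array, in castrated replicate 3, and the highest ran from 4.66 to 5.58 in the other arrays. Crem, a CREB relative with activating and repressing forms, rose by 1.30 ± 0.31 and the small Maf factor Maff by 0.92 ± 0.24 (adjusted p = 0.0286 and 0.0442). All 3 group means of Maff, 5.04 in regenerated, 6.39 in castrated and 5.47 in intact arrays, lay under the background limit. Crem lost that call without intact replicate 1 or 3 or castrated replicate 1 or 2 (adjusted p = 0.0729 to 0.125). Maff lost it without any 1 of the intact arrays, castrated replicate 1 or 3, or regenerated replicate 1, 2 or 3 (adjusted p = 0.0549 to 0.119). The count of this list was 1 without intact replicate 1 or 3 and 2 without intact replicate 2 or castrated replicate 1 or 2.

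Between regenerated and castrated cells 5 of these 15 fell and none rose (median -0.27 log2). Fosl2, another Fos-related subunit, fell by 2.65 ± 0.46 log2 (limma adjusted p = 0.00919), and Crem by 1.82 ± 0.29 (adjusted p = 0.00567). Fosl2 measured 9.36, 10.06, 8.71 and 8.77 in regenerated arrays, 12.81, 11.91 and 10.90 in castrated arrays and 10.58, 10.82 and 10.02 in intact arrays. The castrated values were above all others, though the castrated difference from intact did not pass (1.40 ± 0.50, adjusted p = 0.126).

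Of 22 other immediate early regulators, 8 rose in castrated against intact cells and none fell (median 0.83 log2). Id1, an inhibitor of basic helix-loop-helix factors, rose by 4.78 ± 0.74 log2, Cebpd, an acute phase factor of the C/EBP family, by 2.42 ± 0.47 and Egr3, a relative of Egr1, by 2.33 ± 0.48 (limma adjusted p = 0.00349, 0.0111 and 0.0149). The intact means of all 3 lay under the background limit of 6.40, so the sizes may depend on background signal. Id1 and Egr3 lay above the highest background control of the same array in every intact array. Cebpd did so in intact replicates 2 and 3 only. Egr3 lost its call without intact replicate 1 (adjusted p = 0.0609). The count of this list was 3 without intact replicate 1, 4 without intact replicate 2 or castrated replicate 1, and 5 without castrated replicate 2. In regenerated against castrated cells 8 of the 22 fell and none rose (median -0.79). That count was 3 without regenerated replicate 2 or 3, 4 without castrated replicate 1 or any 1 of the 3 intact arrays, and 5 without regenerated replicate 1. Id1 was not among the 8, with overlapping groups and a difference of -1.91 ± 0.69 log2 (limma adjusted p = 0.162). Its regenerated arrays lay above intact ones without overlap, by 2.87 ± 0.69, which did not pass (0.261).

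Both paralogues of Nr4a1 were among those that fell. Nr4a3 measured 7.50, 7.19, 5.65 and 7.19 in regenerated arrays, 9.88, 10.21 and 9.52 in castrated arrays and 8.17, 8.70 and 8.28 in intact arrays, and it fell by 2.99 ± 0.40 log2 in regenerated against castrated cells (limma adjusted p = 0.00219). Nr4a2 measured 10.24, 10.14, 9.07 and 10.18 in regenerated arrays, 12.99, 12.88 and 11.37 in castrated arrays and 10.86, 11.27 and 10.77 in intact arrays, and it fell by 2.51 ± 0.43 (limma adjusted p = 0.00775). In both genes the regenerated arrays lay below the castrated ones without overlap, and regenerated replicate 3 was the lowest. Egr2, another relative of Egr1, fell by 3.18 ± 0.47 (adjusted p = 0.00354). These 3 calls were kept in all 18 alternatives.

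Of 23 feedback inhibitors of the response, 4 rose in castrated against intact cells and none fell (median 0.47 log2). Dusp6, a phosphatase that inactivates ERK, rose by 2.93 ± 0.46 log2 (limma adjusted p = 0.00398), Nfkbia, the inhibitor that holds NF-kB in the cytoplasm, by 1.69 ± 0.37 (0.0194) and Spry1, an inhibitor of receptor tyrosine kinase signalling, by 1.14 ± 0.28 (0.0343). The Spry1 means of 5.60 in regenerated and 5.72 in intact arrays lay under the background limit. Nfkbia lost its call without intact replicate 3 (0.0533) or castrated replicate 3 (0.0695). Spry1 lost it without intact replicate 1 or 2, castrated replicate 1 or 3, or regenerated replicate 2 or 3 (0.0514 to 0.14). The count of this list was 2 without intact replicate 1 or 2 or castrated replicate 1, and 1 without castrated replicate 3.

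In regenerated against castrated cells 7 of the 23 fell and none rose (median -1.08 log2). Dusp5, another ERK phosphatase, measured 9.98, 9.68, 8.39 and 9.12 in regenerated arrays, 12.62, 12.43 and 12.27 in castrated arrays and 11.55, 11.75 and 10.41 in intact arrays. The 3 groups did not overlap, and Dusp5 fell by 3.14 ± 0.42 log2 in regenerated against castrated cells (limma adjusted p = 0.00203). Dusp6 fell by 2.71 ± 0.43 (0.00567) and Nfkbia by 1.77 ± 0.35 (0.0163), and the Nfkbia call ended without castrated replicate 3 (0.0642). The count of 7 was 4 without castrated replicate 1.

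Of 15 kinases and factors upstream of these genes, limma called none in castrated against intact cells (3 at an unadjusted p under 0.05, median -0.14 log2; 1 was called without castrated replicate 3 and 2 without regenerated replicate 4) and 1 in regenerated against castrated cells. That gene was Srf, the serum response factor, with a difference of -2.29 ± 0.56 log2 (adjusted p = 0.0428), a call lost when any array other than castrated replicate 3 was left out (adjusted p = 0.053 to 0.161). Without castrated replicate 3 there were 2 calls.

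Of 17 secreted and surface products of the response, 5 rose in castrated against intact cells and none fell (median 0.34 log2). Thbs1, the matrix glycoprotein thrombospondin, measured 10.44, 13.02, 11.24 and 12.04 in regenerated arrays, 16.70, 15.98 and 15.39 in castrated arrays and 11.21, 11.10 and 9.91 in intact arrays. It rose by 5.28 ± 0.62 log2 in castrated cells (limma adjusted p = 0.000847) and fell by 4.34 ± 0.58 in regenerated against castrated cells (adjusted p = 0.0021). The urokinase receptor Plaur rose by 4.21 ± 0.74 and the chemokine Cxcl2 by 3.24 ± 0.56, the second from a mean of 4.60 under the background limit (adjusted p = 0.00712 and 0.00622).

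In regenerated against castrated cells 7 of the 17 fell and none rose (median -0.50 log2). Cxcl2 fell by 3.03 ± 0.52 log2 (limma adjusted p = 0.00842) and Plaur by 3.25 ± 0.70 (0.0252). The Plaur call ended without castrated replicate 1 or 2, or regenerated replicate 1 or 3 (0.0509 to 0.0917). The count of 7 was 4 without regenerated replicate 3.

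Heat shock genes, which dissociation also induces, had 1 of 12 higher in castrated against intact cells and none lower (median 0.43 log2), where 4.82% of all genes were called as higher. It was the small chaperone Hspb1, at 1.63 ± 0.36 log2 (limma adjusted p = 0.0191), lost without intact replicate 1 (0.0928), intact replicate 2 (0.0658) or castrated replicate 3 (0.07). In regenerated against castrated cells limma called none of the 12 (1 at an unadjusted p under 0.05, median -0.03). Their mean deviation was 0.87 in regenerated replicate 1 and -0.14 to 0.07 in the other regenerated arrays, -0.03 to 0.48 in castrated arrays and -0.57 to -0.23 in intact arrays, while the 9 members ran from -1.13 to -0.18, from 0.59 to 0.90 and from -0.38 to 0.25 in the same groups. Between regenerated and intact cells the median of the 12 heat shock genes was 0.35, from -0.31 to 2.57, and none was called. Neither Hsph1 nor Hspa1a was called in castrated cells. Hsph1 was above intact by 2.57 ± 0.61 log2 in regenerated (limma adjusted p = 0.255) and 0.95 ± 0.66 in castrated arrays (0.481). The Hspa1a differences from intact were 2.41 ± 0.62 (0.269) and 2.04 ± 0.66 (0.0931) in the same order, both without overlap. The part of dissociation in the members' differences was not tested.

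Of 16 Atf4 targets and growth arrest genes, 1 rose and 1 fell in castrated against intact cells, where 8.01% of all genes were called. The 2 calls became 4 without regenerated replicate 4, 0 without intact replicate 1, and 1 without intact replicate 2 or 3 or any 1 of the castrated arrays. The cell cycle inhibitor Cdkn1a rose by 1.94 ± 0.41 log2 (limma adjusted p = 0.0167; lost without intact replicate 1, 0.0583, or 3, 0.0533). Sesn2, a stress-induced inhibitor of growth signalling, fell by 1.36 ± 0.33 (0.0316; lost without intact replicate 1 or 2 or any castrated array, 0.0673 to 0.133). In regenerated against castrated cells 2 rose and none fell: Ddit4, an inhibitor of mTORC1, by 1.83 ± 0.30 (0.00646) and Chac1, which degrades glutathione, by 0.79 ± 0.16 (0.0193; lost without castrated replicate 1, 0.056, or 2, 0.0874). All Chac1 values and the castrated means of Ddit4 and Sesn2 lay under the background limit of 6.40. The regenerated Chac1 values (5.78, 5.84, 5.71 and 6.29) were each above the highest background control of their own array. So was castrated replicate 1, but not castrated replicate 2 or 3. Between regenerated and intact cells limma called no gene of any of the 7 lists, and the counts at an unadjusted p under 0.05 ran from 2 of 17 secreted and surface products to 9 of 22 other immediate early regulators, where 10% of all genes passed.

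**Figure D3:**
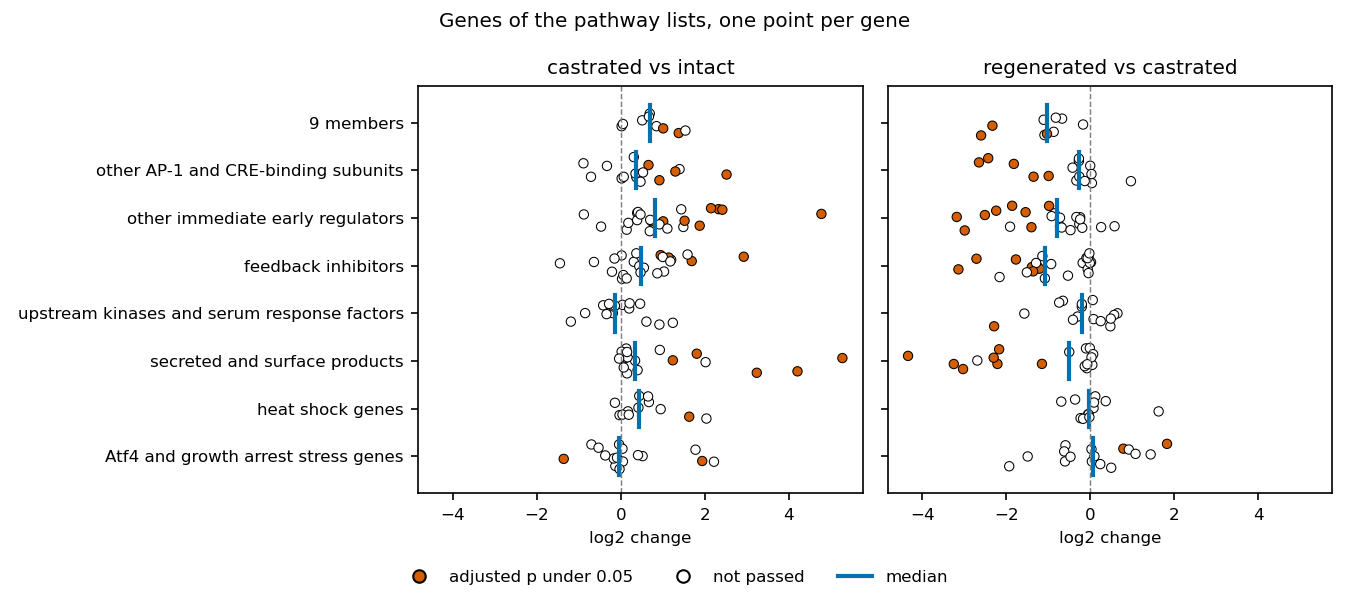
Log2 change of each gene of the 7 pathway lists and of the 9 members for castrated against intact (left) and regenerated against castrated cells (right). Each point is a gene, filled where the limma adjusted p was under 0.05, and the blue line is the list's median; positive means higher in the group named first, and vertical scatter within a list has no meaning.

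Genes outside the members were ranked by how far their values over the 10 arrays resembled the members' mean, by Pearson's r as a description. Predicted, clone-named, non-coding, pseudogene, olfactory and vomeronasal symbols were left out of the ranking. The highest were Tnfaip3, an NF-kB feedback inhibitor (r = 0.98), Egr2 (0.95), the small Maf factor Mafk (0.93), the ErbB feedback inhibitor Errfi1 (0.93) and Ifrd1 (0.93). Tnfaip3 ran from 5.29 to 6.44 in regenerated arrays, from 7.05 to 7.53 in castrated arrays and from 5.86 to 6.57 in intact arrays, with its lowest value in regenerated replicate 3. These points share the groups, so that part of the likeness is the group difference itself.

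**Figure D4:**
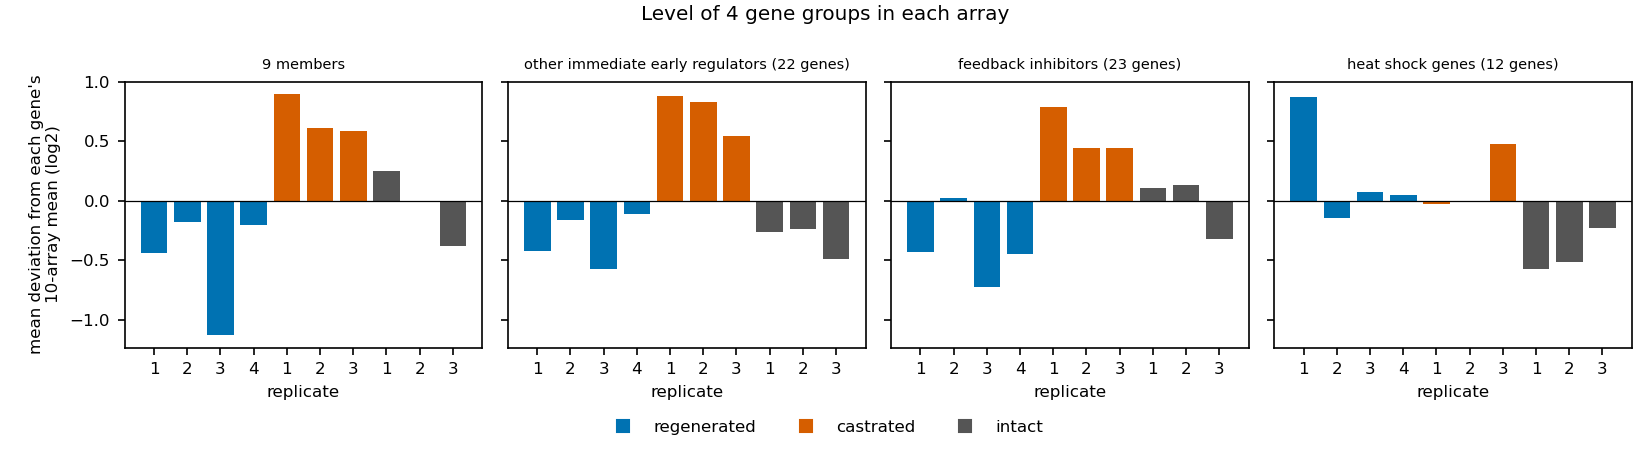
Mean deviation of a gene group from its genes' own 10-array means (log2, bars) in each array, by replicate number, for the 9 members, 22 other immediate early regulators, 23 feedback inhibitors and 12 heat shock genes; regenerated arrays are blue, castrated orange and intact grey. In the first 3 groups the castrated bars are the highest and regenerated replicate 3 is the lowest, while the heat shock genes are highest in regenerated replicate 1.

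For each marker list the summed level is the sum of its genes' log2 values in an array. Genes at background add to that sum too, so it does not measure the amount of a cell type. The sorted cells carried the luminal markers, and none of the 8 measured of 10 had a mean at or under the background limit. The summed level of these 8 was 112 to 116 in regenerated, 117 to 121 in castrated and 116 to 117 in intact arrays. Of these 8, 4 rose in castrated against intact cells: Krt8 by 1.37 ± 0.35 log2, Krt18 by 1.41 ± 0.18, Krt19 by 1.04 ± 0.21 and Cd24a, the gene of the CD24 gate, by 1.72 ± 0.27 (limma adjusted p = 0.0364, 0.00119, 0.0132 and 0.00358). Without single arrays the Krt8 call ended in 6 cases (any 1 intact array, castrated replicate 1 or 2, or regenerated replicate 3; 0.0544 to 0.126) and that of Krt19 without intact replicate 1 or 2 (0.0618 and 0.0612). Krt8 fell by 2.05 ± 0.32 and Krt18 by 1.69 ± 0.16 in regenerated against castrated cells (adjusted p = 0.00517 and 0.00039). Hoxb13, which drives the sorted reporter, was itself 8.26 to 10.27 in regenerated arrays, 7.54 to 7.93 in castrated arrays and 10.19 to 10.54 in intact arrays. It fell by 2.65 ± 0.42 log2 in castrated against intact cells (limma adjusted p = 0.00416) and rose by 1.74 ± 0.39 in regenerated against castrated cells (0.0321), the second call being lost without castrated replicate 1, 2 or 3, regenerated replicate 1, 2 or 3, or intact replicate 1 or 2 (0.0537 to 0.105). Whether the gate took the same cells in each group was not tested. Cells that differ in number and cells that differ in RNA content cannot be told apart in such bulk samples. Of 10 myeloid markers 9 had means at or under the background limit, with a summed level of 43.0 to 51.6 in regenerated, 47.1 to 53.1 in castrated and 43.2 to 45.4 in intact arrays. The exception was Cd68, with means of 8.43 in regenerated, 8.92 in castrated and 8.27 in intact arrays, where the groups overlapped and no difference was called. Of the 10, 2 rose in castrated against intact cells. Cd14, a lipopolysaccharide co-receptor, measured 5.77, 6.93, 6.23 and 6.57 in regenerated arrays, 8.01, 6.64 and 7.48 in castrated arrays and 5.33, 5.53 and 5.43 in intact arrays, a rise of 1.95 ± 0.35 log2 over intact (limma adjusted p = 0.00798), and its intact mean lay under the background limit. Itgam, the gene of the CD11b gate, rose by 0.38 ± 0.08 (0.0181) with all values under that limit, a call lost without intact replicate 1 or 2 or castrated replicate 2 (0.0667 to 0.0848). Ptprc, the gene of the CD45 gate, was 3.55 to 3.63, 3.57 to 3.74 and 3.57 to 3.76 in the same groups. Summed levels of 8 lymphocyte markers were 33.2 to 35.2 in regenerated, 37.7 to 39.3 in castrated and 33.2 to 36.5 in intact arrays, with 7 of 8 at or under the limit. The T cell receptor subunit gene Cd3e, the 1 lymphocyte marker above the limit, was 5.73 to 7.38 in regenerated, 8.26 to 11.76 in castrated and 5.40 to 8.18 in intact arrays. The other CD3 genes measured, Cd3d and Cd3g, lay under the limit and were not called. Cd3e differed by 3.39 ± 0.93 log2 for castrated against intact cells, which did not pass (limma adjusted p = 0.0507). It fell by 4.04 ± 0.87 log2 in regenerated against castrated cells (limma adjusted p = 0.0253; lost without castrated replicate 1 or 2 or regenerated replicate 2 or 3, 0.0674 to 0.103).

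Of 9 measured stromal and smooth muscle markers 8 had means at or under the background limit, with a summed level of 41.8 to 43.5 in regenerated, 38.9 to 41.9 in castrated and 42.7 to 44.0 in intact arrays. The exception was Dcn, the matrix proteoglycan decorin, at 11.62, 11.01, 11.89 and 10.94 in regenerated arrays, 6.88, 9.09 and 6.63 in castrated arrays and 12.77, 12.54 and 11.40 in intact arrays. Dcn fell by 4.70 ± 0.61 log2 in castrated against intact cells and rose by 3.83 ± 0.57 in regenerated against castrated cells (limma adjusted p = 0.00143 and 0.00394), opposite in direction to the called members. Of 6 basal markers 4 had means at or under the limit, with a summed level of 36.2 to 39.5 in regenerated, 36.3 to 37.0 in castrated and 34.5 to 35.6 in intact arrays. The basal keratin Krt14 rose by 0.52 ± 0.14 in castrated against intact cells (limma adjusted p = 0.046) with all values under the limit. That call was lost without any 1 of the intact or castrated arrays or regenerated replicate 1 (0.0628 to 0.175). Krt15 lay above the limit, with means of 12.48 in regenerated, 11.14 in castrated and 9.95 in intact arrays. Its regenerated values were above intact ones without overlap, though the difference of 2.53 ± 0.58 log2 did not pass (limma adjusted p = 0.255). Nor did those of 1.34 ± 0.58 for regenerated against castrated (0.243) and 1.19 ± 0.62 for castrated against intact cells (0.317). All 6 endothelial markers had means under the limit, and none was called (summed level 22.3 to 24.8 in regenerated, 22.3 to 23.1 in castrated and 22.7 to 22.8 in intact arrays). The part of these markers in the members' differences was not tested.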

How the data were processed

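The authors deposited log2 values for 72688 rows. Per the submitters' processing notes, RMA and Affymetrix Expression Console were used, without versions or a genome build stated. The RMA method forces arrays to a common distribution, so a shift of all transcripts would be reduced. No column was left unused. Of 65956 non-control rows, 30604 had 1 gene symbol in the platform annotation, 2146 several and 33206 none; 827 symbols were updated through gene identifiers against RefSeq (GRCm38.p6, names only). The highest-mean row was used for 355 genes with several rows, leaving 30142 genes. The median of 23 background control rows was 3.03 and their highest value 6.40, in castrated replicate 3, against 4.66 to 5.58 in the other arrays. Array medians over all 72688 rows ran from 4.12 to 4.22. Precision is limited by the number of arrays.

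All 10 arrays and 3 groups entered 1 model without covariates (R 4.3.3, limma 3.58.1, lmFit and eBayes with trend). Tests were two-sided with Benjamini-Hochberg adjustment over all genes, and calls are at an adjusted p under 0.05. The script was tested on simulated data. Replicate numbers were not used to pair the arrays in this model. Deviations from group means correlated from -0.16 to 0.26 between same-numbered arrays, above 0.1 in 3 of 9 pairs. Between arrays with different numbers they ran from -0.32 to 0.25, above 0.1 in 8 of 24 pairs. With so few arrays a group, these values cannot exclude a pairing.

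The members and lists were chosen with earlier results of these data known. The text names all members, up to 3 called genes with the largest difference per list and comparison, and the 5 genes most like the members' mean among the symbols ranked. Fosl2 in castrated cells, Id1 in regenerated cells, Hspa1a, Hsph1 and the marker genes are named beside a result for context, chosen after their values were seen. The alternatives were no trend, robust eBayes, array weights, a filter at the highest mean of a background row (5.12), a common array median, the mean of a gene's rows, only the arrays compared, a replicate block and each array left out.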

Additional observations from a re-analysis of the deposited data

Results flagged for a closer look

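Among the 4 regenerated arrays, replicate 3 lay far from the other 3 for several of these genes. The gap to its nearest neighbour, as a share of the group's whole range, was 0.891 for Fos (12.50 log2) and 0.883 for Fosb (16.67 log2), above Dixon's critical value for 4 samples. The same was seen for Nr4a2 at 9.07 log2 (0.917) and Nr4a3 at 5.65 log2 (0.833). In all, 2 of 9 members and 2 of the 23 list genes named for the size of their difference were marked in this way. For a single gene the cut marks about 1 in 20 groups by chance. All the marked values came from the same array, and the share of all genes marked was not determined. These counts therefore cannot be compared with chance. No explanation was tested.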

How the results depend on the processing

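Over 18 alternatives (17 for Ier3, which the background filter removed), the falls of Klf6, Nr4a1 and Ier3 in regenerated against castrated cells and the rise of Ier3 in castrated cells kept their calls. The count of called members in castrated against intact cells, 2 as reported, was 4 with array weights and 4 with a replicate block, and 1 to 3 without single arrays. In regenerated against castrated cells it was 3 as reported, 6 with array weights and 5 with a replicate block, and 3 to 5 without single arrays. The block added Fosb (limma adjusted p = 0.0427) and Nr4a1 (0.00988) to the first and Fosb (0.00826) and Atf3 (0.0352) to the second. It ended the Nfkbia call in the second (0.0558) and those of Maff (0.0576) and Spry1 (0.0804) in the first. Only the regenerated group has a replicate 4, so the block fits that array with a term of its own. Regenerated replicate 4 therefore adds nothing to the comparisons made with the block. Whether the replicate numbers pair the arrays could not be settled. No alternative called a member between regenerated and intact cells. List counts moved both ways. In castrated against intact cells array weights gave 7 other AP-1 and CRE-binding subunits. Feedback inhibitors were 7 above background and 2 with a common median, and upstream kinases and factors were 2 without the trend. In regenerated against castrated cells feedback inhibitors were 11 with array weights or above background. With only the arrays compared, other immediate early regulators were 3 and secreted and surface products 4.

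Over all genes, castrated against intact gave 2414 calls, 4258 with array weights and 1019 to 3271 without single arrays (1019 without intact replicate 1, 1200 without intact replicate 2 and 1473 without castrated replicate 2). Regenerated against castrated gave 1500, 822 with only the arrays compared and 816 to 2127 without single arrays (816 without castrated replicate 2, 871 without regenerated replicate 2 and 934 without regenerated replicate 3). Regenerated against intact gave 11, then 2 without the trend, 70 with array weights, 18 above background, 3 with a common median, 0 with only the arrays compared, 4 with the block and 0 to 78 without single arrays.

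Differences near 0 changed sign. In castrated against intact cells Jund was -0.07 and Atf3 -0.04 log2 with a common median; without single arrays Jund ran from -0.20 to 0.29 and Atf3 from -0.15 to 0.21. In regenerated against intact cells Ier3 was 0.07 with the block, and without single arrays Ier3 ran from -0.12 to 0.07, Fos from -0.36 to 0.08, Egr1 from -0.10 to 0.11 and Jund from -0.37 to 0.12. The causes were not tested. Signal near background limits Ier3 and Jund, and signal near the top of the scale may limit Fosb.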
